A study of Homo sapiens with 14 samples.

Results

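The 34 genes described here encode aminoacyl-tRNA synthetases, 19 of the cytosol and 15 of mitochondria. They were chosen by symbol, as older gene tables write it (AARS for what is now AARS1), from the 23106 gene symbols of the count files, and all 34 were found. The names ending in 2 are the mitochondrial enzymes, and the others are cytosolic. RNA was measured by sequencing of polyadenylated RNA in PC3 cells, a line from a human prostate carcinoma, and HCT116 cells, a line from a human colorectal carcinoma. Each line was kept at 21% oxygen (normoxia) or 0.5% oxygen (hypoxia) for 16 h, with 4 libraries per condition in PC3 and 3 in HCT116. No cell carried a transgene or a deletion by the labels. PC3 grew in a DMEM and Ham's F12 mixture and HCT116 in McCoy's 5a medium, so line and medium cannot be told apart. The study's methods call the replicates biological and do not say how they were separated, by culture or by day.

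An aminoacyl-tRNA synthetase joins an amino acid to its transfer RNA, the charged form that ribosomes use. Human cells hold separate sets of these enzymes for cytosolic and for mitochondrial protein synthesis, nearly all encoded in the nucleus by different genes. GARS and KARS are exceptions, since each gene gives both a cytosolic and a mitochondrial form, and QARS has no mitochondrial partner because mitochondria make glutaminyl-tRNA with an amidotransferase. EPRS joins the glutamate and proline enzymes in a single protein, and FARSA and FARSB are the subunits of the cytosolic phenylalanine enzyme. Several cytosolic enzymes sit together in the multi-synthetase complex on the scaffold proteins AIMP1, AIMP2 and EEF1E1. The transcription factor ATF4, which is translated when amino acids run short or proteins misfold, is known to raise many of the cytosolic genes together with genes of amino acid synthesis and uptake.

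Total counts ran from 71228454 to 150630928 per library, and the members took 0.433% to 0.617% of them. A member had between 568 counts (PARS2) and 104100 counts (IARS) in a library, and PCR copies cannot be told apart in these counts. Levels are CPM, the counts of a gene scaled to a fixed library total and corrected by TMM, edgeR's correction for library composition, over the 14 libraries. They are shares of a library's RNA, so less RNA per cell and fewer cells of a kind cannot be told apart. NDRG1, a gene induced by hypoxia, rose by 2.87 on the log2 scale in PC3 and 2.78 in HCT116, and the 4 such genes checked rose in both lines. Of the prostate markers, KLK3 and FOLH1 were at or near 0 in PC3, while HOXB13 and TMPRSS2 were present. Of 6 colon markers, CDX2 alone was above 1 CPM in HCT116, and CDX1, VIL1, CDH17, LGALS4 and GPA33 were at or near 0. Of 4 epithelial genes, EPCAM, KRT8 and KRT18 were at 273 CPM or more in every library, and CDH1 was at 309 to 428 CPM in PC3 and 26.8 to 55.0 CPM in HCT116. The summed level of 3 markers of blood, vessel and connective tissue cells was 8.27 to 14.01 CPM in PC3 and 8.41 to 12.45 CPM in HCT116.

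The PC3 libraries numbered 1 and 4 stood apart in opposite directions. In each of the pair numbered 1, 15 of 15 mitochondrial and 15 of 19 cytosolic members lay below the mean of their condition, by a median of 0.21 and 0.11 on the log2 scale in normoxia and of 0.19 and 0.10 in hypoxia. In the same libraries 17 interferon response genes lay above it by a median of 0.77 and 0.78. In the pair numbered 4, 19 and 18 of 19 cytosolic and 14 and 14 of 15 mitochondrial members lay above the mean in normoxia and hypoxia, by medians of 0.08 and 0.18 (cytosolic) and of 0.10 and 0.15 (mitochondrial), and all 17 interferon response genes lay below it, with median deviations of -0.60 and -0.67. The part of these differences in the results was not tested, and values without each pair are given beside the results they touch. The share of all genes below or above these means was not taken. Over 14309 genes, the deviations within the pair numbered 1 correlated at 0.81 and within the pair numbered 4 at 0.39. Whether the members moved more than other genes in these libraries was not tested.

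The promoters of some members are shown first, because many cytosolic members carry the sequence that ATF4 is known to bind with a C/EBP partner. RefSeq's table for GRCh38.p14, with 250 bases before and 50 after each gene start, held 39 windows for 30 of the 34 members. DARS, LARS, YARS and AARS2 had none. The motif TGATGNAA was searched on both strands. It was in the windows of 7 of 16 cytosolic members and 1 of 14 mitochondrial members, against 4.46% of the 27305 genes in the table. The 28-base stretches around these matches are given with the motif, or its reverse complement, in capitals, and each is written 5′ to 3′ on the strand of its gene.

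AARS, chr16:70289676-70289703, minus strand: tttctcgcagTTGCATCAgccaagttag
CARS, chr11:3057408-3057435, minus strand: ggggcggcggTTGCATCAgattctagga
GARS, chr7:30594835-30594862, plus strand: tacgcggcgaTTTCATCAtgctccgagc
IARS, chr9:92293693-92293720, minus strand: tttcagcgcgTTGCATCAcctccgtgcg
MARS, chr12:57488054-57488081, plus strand: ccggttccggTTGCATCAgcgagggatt
NARS, chr18:57621805-57621832, minus strand: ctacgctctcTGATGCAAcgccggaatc
TARS, chr5:33440957-33440984, plus strand: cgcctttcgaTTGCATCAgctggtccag
YARS2, chr12:32756077-32756104, minus strand: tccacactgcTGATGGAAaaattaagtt

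AARS, CARS, IARS, MARS and TARS carry the same 8 bases in the same orientation, and NARS carries them on the other strand. In CARS, MARS and TARS the match began within 4 bases of the gene start, in NARS 14 bases after it, and in AARS and YARS2 187 and 197 bases before it. The hexamer CACGTG (an E-box) was in the windows of 4 of 30 members against 8.77% of all genes, and the core ACGTG of the site bound by hypoxia-inducible factors in 9 of 30 against 24.9%. Its other form, GCGTG, was in 25 of 30 against 40.6%. ACGTG lies within CACGTG, so these counts overlap. The cyclic AMP response element TGACGTCA was in none of the 30 and in 2.25% of all genes. The shares of all genes cover every gene in the promoter table, expressed here or not, and base composition was not matched. Whether the members differ from other expressed genes in these motifs was not tested. A GCGTG match between the starts of HARS and HARS2 lies in the windows of both. A match is a description of letters and not a bound site.

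In HCT116, synthetase genes passed the test for a hypoxia response about as often as all genes tested. DARS rose, and 7 members fell modestly, 6 of them cytosolic. In 1 fit over all 14 libraries, only MARS and NARS of these 7 still passed. Of the 34 members, 2 rose (DARS, EARS2) and 7 fell (MARS, NARS, YARS, FARSB, NARS2, SARS, WARS), 26.5% of them. Of the 14120 genes tested, 25.9% passed the same threshold (adjusted p under 0.05 in edgeR's quasi-likelihood test), 14.6% rising and 11.3% falling. The median log2 fold change was -0.05 over the 19 cytosolic and -0.05 over the 15 mitochondrial members, against 0.00 over all genes tested. Among the cytosolic members 1 rose and 6 fell, and among the mitochondrial ones 1 rose and 1 fell. No member but DARS changed by 0.5 or more on the log2 scale. The level of DARS, MARS, NARS and the other members that passed in either line is plotted by library.

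**Figure D1:**
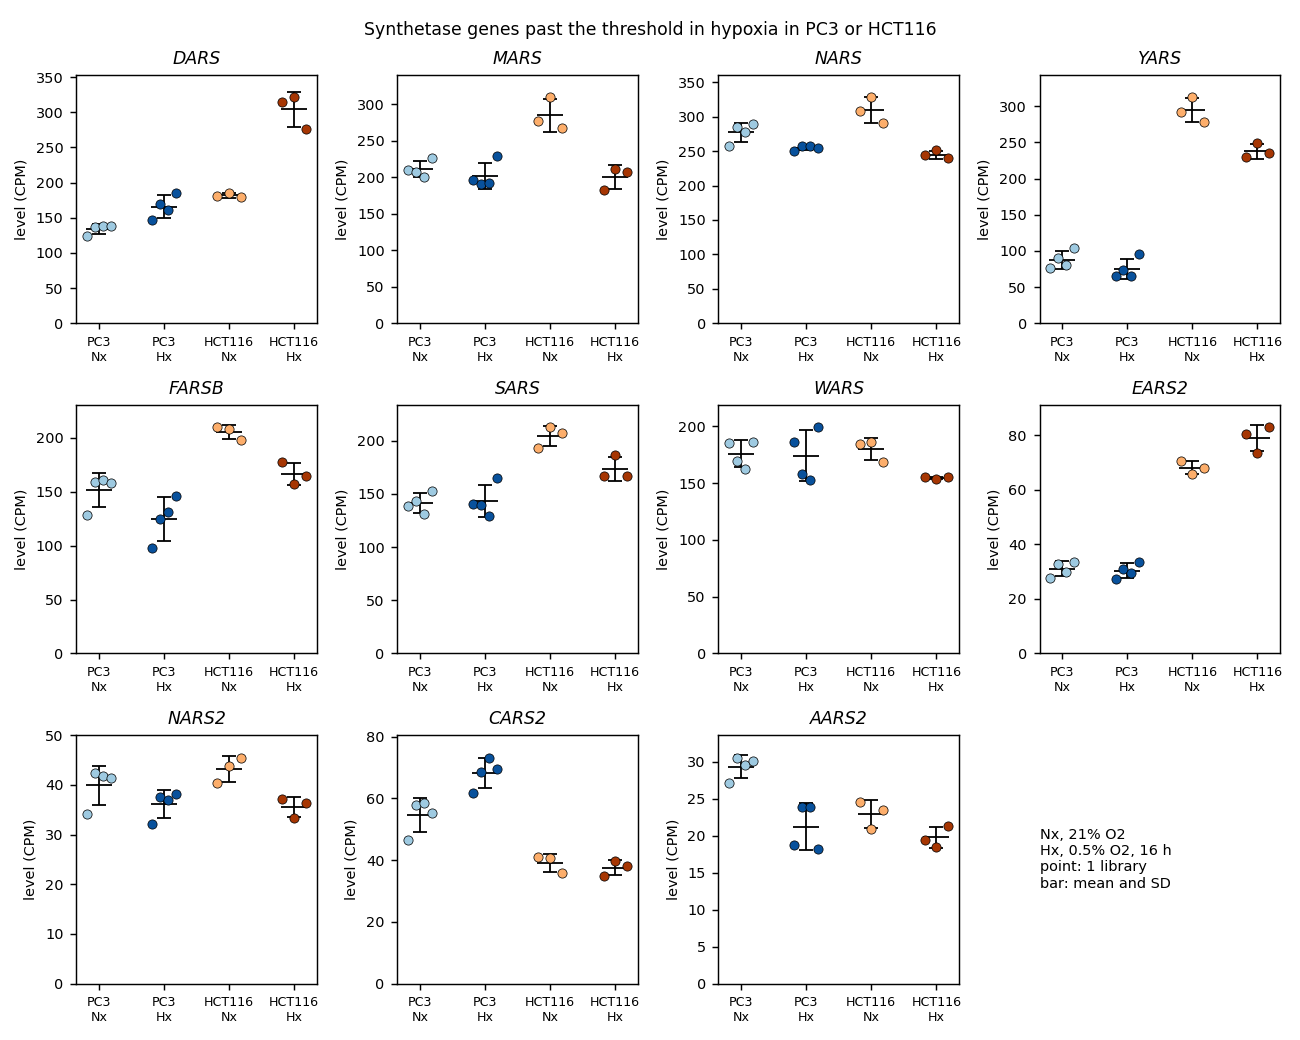
Level (CPM, linear axis from 0) of the 11 members past the threshold in PC3 or HCT116, in normoxia (Nx) and hypoxia (Hx). Each point is 1 library, and the bars give the mean and SD of 4 (PC3) or 3 (HCT116) libraries. DARS in HCT116 goes from 182 to 304 CPM, while MARS in the same cells goes from 285 to 200 CPM.

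DARS encodes the cytosolic aspartyl-tRNA synthetase, a member of the multi-synthetase complex. Its level in HCT116 was 181, 185 and 179 CPM in normoxia and 315, 321 and 276 CPM in hypoxia. The lowest hypoxic library lay far above the highest normoxic one. The log2 fold change was 0.76 (SE 0.07, adjusted p = 4.26e-05 in edgeR), a rise of 69.3%. In PC3 the 4 normoxic libraries held 124, 137, 139 and 138 CPM and the hypoxic ones 147, 169, 161 and 186 CPM, again without overlap. The gene lies at chr2:136663451-136743670 on the minus strand of GRCh37.

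MARS encodes the cytosolic methionyl-tRNA synthetase, whose product also starts every cytosolic protein chain. It held 277, 310 and 267 CPM in normoxic and 182, 211 and 208 CPM in hypoxic HCT116 cells. The groups did not overlap, and the log2 fold change was -0.49 (SE 0.08, adjusted p = 0.00123). In PC3 it was at 210, 208, 201 and 227 CPM in normoxia and 197, 190, 193 and 229 CPM in hypoxia, with a log2 fold change of -0.06 (SE 0.08, adjusted p = 0.659), and the groups overlapped. The gene lies at chr12:57869228-57911352 and overlaps DDIT3, a stress-induced transcription factor gene on the other strand. DDIT3 held 10.5 ± 1.36 CPM in normoxic and 7.97 ± 2.06 CPM in hypoxic HCT116 cells (SD, n = 3), a small level beside that of MARS. The sources do not say whether strand was used in counting, so how reads from overlapping exons were assigned is not known.

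NARS encodes the cytosolic asparaginyl-tRNA synthetase. In HCT116 it held 308, 328 and 291 CPM in normoxia and 244, 251 and 240 CPM in hypoxia. The groups were apart, with a log2 fold change of -0.32 (SE 0.07, adjusted p = 0.00542). YARS encodes the tyrosine enzyme. Its level was 292, 312 and 279 CPM in normoxia and 229, 249 and 235 CPM in hypoxia, also apart, and its log2 fold change was -0.29 (SE 0.07, adjusted p = 0.00856). YARS overlaps S100PBP on the other strand, whose log2 fold change was -0.07 (adjusted p = 0.581).

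FARSB, the beta subunit of the phenylalanine enzyme, held 210, 208 and 198 CPM in normoxic HCT116 cells and 177, 157 and 165 CPM in hypoxic ones. Its log2 fold change was -0.28 (SE 0.07, adjusted p = 0.0107). FARSA, the alpha subunit of the same enzyme, went the other way at 0.14 (SE 0.07, adjusted p = 0.137) and did not pass the test. SARS, the serine enzyme, held 193, 212 and 207 CPM in normoxia and 167, 187 and 166 CPM in hypoxia. The groups did not overlap, and its log2 fold change was -0.22 (SE 0.07, adjusted p = 0.0414). WARS, the tryptophan enzyme and a gene known to be raised by interferon, went from 180 ± 9.74 to 155 ± 0.932 CPM (SD, n = 3), a log2 fold change of -0.20 (SE 0.06, adjusted p = 0.0352).

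Of the mitochondrial enzymes, EARS2, the glutamate enzyme, held 70.7, 65.8 and 68.0 CPM in normoxic and 80.3, 73.7 and 82.9 CPM in hypoxic HCT116 cells. The groups were apart, and the log2 fold change was 0.23 (SE 0.07, adjusted p = 0.0262). NARS2, the asparagine enzyme, held 40.4, 43.7 and 45.5 CPM in normoxia and 37.1, 33.3 and 36.4 CPM in hypoxia. Its log2 fold change was -0.26 (SE 0.07, adjusted p = 0.0215). NARS and NARS2 were the only pair of partners of which both fell past the threshold. The groups of libraries did not overlap for 11 of the 34 members in HCT116 (3 higher, 8 lower), against 42.5% of all genes tested.

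Of the 12 cytosolic members described as ATF4 targets, 5 fell in HCT116 (MARS, NARS, SARS, WARS, YARS) and none rose, against 11.3% of all genes tested that fell and 14.6% that rose, with a median log2 fold change of -0.15. Of the other 7 cytosolic members, DARS rose and FARSB fell, against the same shares of all genes, with a median of 0.02. Of the 7 cytosolic members with the TGATGNAA motif, MARS and NARS fell past the threshold, and the log2 fold changes of AARS (-0.06), CARS (-0.15), GARS (-0.05), IARS (-0.00) and TARS (-0.14) did not pass it. Of the 8 members in the multi-synthetase complex, DARS rose and MARS fell, 2 of 8 against 25.9% of all genes tested. The 3 scaffold genes of that complex all fell, against 11.3% of all genes tested. EEF1E1 fell by 0.54 (adjusted p = 0.0103), AIMP1 by 0.30 (adjusted p = 0.0349) and AIMP2 by 0.22 (adjusted p = 0.0443) on the log2 scale.

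MARS, NARS, YARS, FARSB and DARS passed in HCT116 whichever library was left out. WARS lost its call without normoxic library 1 or 2 or any hypoxic library (adjusted p 0.0628 to 0.126) and with the replicate number as a block (adjusted p = 0.0511). SARS lost it without normoxic library 2 or 3 or hypoxic library 1 or 3 (0.0502 to 0.127). NARS2 lost it without normoxic library 2 or hypoxic library 2 or 3 (0.0545 to 0.0785), and EARS2 without any library but hypoxic library 2 (0.0515 to 0.134). In 1 fit over all 14 libraries only DARS, MARS and NARS passed.

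In PC3 few synthetase genes passed the test without the replicate number as a block. With that block 2 rose and 7 fell, against 28.5% of all genes tested, as given below. Without it, DARS and CARS2 rose and AARS2 fell, 3 of 34 members (8.82%). Of the 14309 genes tested, 11.3% passed, 6.03% rising and 5.29% falling. The median log2 fold change was -0.03 over the cytosolic and -0.13 over the mitochondrial members, and 0.00 over all genes tested. None of the 12 cytosolic members described as ATF4 targets passed, nor any of them at an unadjusted p under 0.05, and their median was -0.03. With the replicate number as a block YARS of these 12 fell (-0.23, adjusted p = 0.0166). The groups of libraries were apart for 4 members (DARS and CARS2 higher, RARS and AARS2 lower), against 20.9% of all genes tested. The hypoxia responses of all members in both lines are plotted with their errors.

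**Figure D2:**
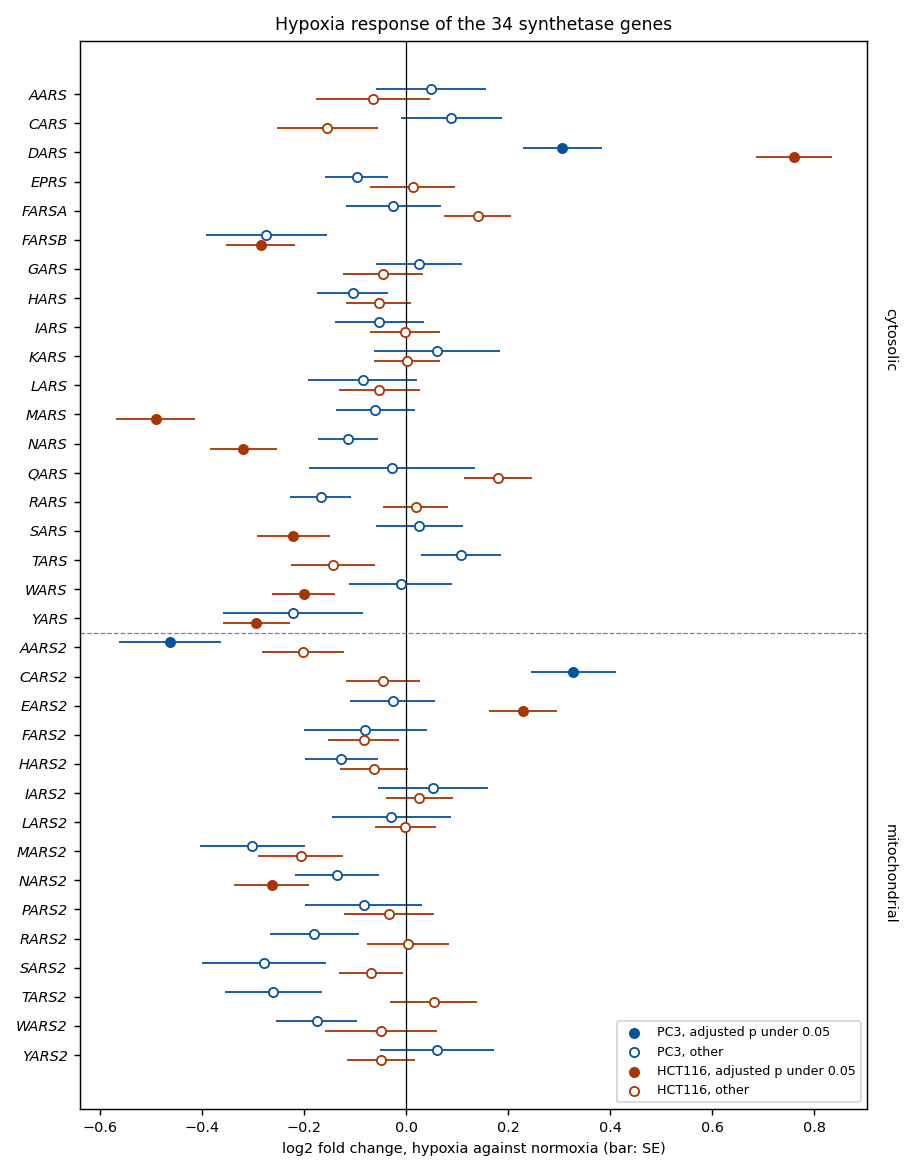
Log2 fold change in hypoxia of the 34 members in PC3 (blue) and HCT116 (brown), with bars of 1 SE and filled points for an adjusted p under 0.05. The dashed line divides cytosolic (above) from mitochondrial genes. DARS lies to the right of 0 in both lines, and MARS is at -0.06 in PC3 and -0.49 in HCT116.

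CARS2 encodes the mitochondrial cysteinyl-tRNA synthetase. It held 46.5, 58.0, 58.4 and 55.3 CPM in normoxic and 61.6, 68.5, 73.2 and 69.4 CPM in hypoxic PC3 cells. The groups did not overlap, and the log2 fold change was 0.33 (SE 0.08, adjusted p = 0.0349). In HCT116 it was at 41.1, 40.7 and 35.8 CPM in normoxia and 34.9, 39.7 and 38.1 CPM in hypoxia, a log2 fold change of -0.05 (adjusted p = 0.688). CARS2 overlaps ING1 on the other strand, which rose in both lines, by a log2 fold change of 0.34 in PC3 (adjusted p = 0.0436) and 0.29 in HCT116 (adjusted p = 0.00838). The part of ING1 in the counts of CARS2 was not tested.

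AARS2 encodes the mitochondrial alanyl-tRNA synthetase. Its level in PC3 was 27.1, 30.5, 29.5 and 30.1 CPM in normoxia and 18.8, 23.9, 23.9 and 18.2 CPM in hypoxia. The highest hypoxic library lay below the lowest normoxic one, with a log2 fold change of -0.46 (SE 0.10, adjusted p = 0.0193), a fall to 0.726 times. In HCT116 it held 24.6, 20.9 and 23.4 CPM in normoxia and 19.4, 18.5 and 21.3 CPM in hypoxia, and the groups overlapped. The log2 fold change there was -0.20 (SE 0.08, adjusted p = 0.0854). DARS in PC3, with the values given above, had a log2 fold change of 0.31 (SE 0.08, adjusted p = 0.0345).

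The replicate numbers paired the PC3 libraries, and with the number as a block 9 of 34 members passed in PC3, against 28.5% of all genes tested in that fit. DARS and CARS2 rose by 0.30 and 0.33 (adjusted p = 0.00762 and 0.00416), and AARS2 fell by 0.47 (adjusted p = 0.00538). The other 6 that fell were MARS2 by 0.31, SARS2 and FARSB by 0.28, TARS2 by 0.26, YARS by 0.23 and RARS by 0.17 on the log2 scale, with adjusted p from 0.00573 (TARS2) to 0.0304 (RARS). MARS2, SARS2 and TARS2 are the mitochondrial methionine, serine and threonine enzymes, and RARS is the cytosolic arginine enzyme. All of the PC3 libraries with hypoxia held less of each of these 6 than the normoxic library of the same number. They were called by the fit with that pairing, so this order is no further support. The same order was seen for EPRS, HARS, LARS, NARS, HARS2, NARS2 and WARS2, which did not pass with the block. FARSB and YARS thus fell in HCT116 without the block and in PC3 with it.

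Without both PC3 libraries numbered 1, the same DARS, CARS2 and AARS2 passed (adjusted p = 0.0279, 0.0233 and 0.0363). Without both numbered 4, no member passed (adjusted p = 0.0569 for DARS, 0.0869 for CARS2 and 0.0579 for AARS2), against 9.86% of all genes, and 10 members had an unadjusted p under 0.05. The calls of DARS and CARS2 were lost without any single normoxic library or without hypoxic library 2 or 3, at adjusted p from 0.0600 to 0.0978 for DARS and 0.0514 to 0.0891 for CARS2. The call of AARS2 was lost without normoxic library 2, 3 or 4 (0.0544 to 0.0687). With total counts as the scale, which moved the median of all genes by -0.10, 8 members fell and none rose in PC3.

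The difference of the hypoxia response between the lines was tested in 1 fit over the 14 libraries. No member passed, against 2.32% of the 15493 genes tested (1.01% higher and 1.31% lower in PC3), and 5 members had an unadjusted p under 0.05. DARS had the largest difference downwards, -0.44 on the log2 scale (PC3 minus HCT116, SE 0.12, adjusted p = 0.0632), and MARS the largest upwards, 0.44 (SE 0.12, adjusted p = 0.0706). CARS2 followed at 0.38 (SE 0.13, adjusted p = 0.137). With the libraries paired by line and number, all 3 passed, at -0.44 for DARS (adjusted p = 0.0107), 0.44 for MARS (adjusted p = 0.0108) and 0.39 for CARS2 (adjusted p = 0.0265), against 8.43% of all genes in that fit. DESeq2 also called these 3 (adjusted p = 0.0131, 0.00911 and 0.0448). DARS passed as well without both PC3 libraries numbered 1 (-0.43, adjusted p = 0.0371), without normoxic PC3 library 1, hypoxic PC3 library 4 or hypoxic HCT116 library 3 alone (adjusted p = 0.0437, 0.0105 and 0.0472), and MARS without hypoxic PC3 library 4 (adjusted p = 0.0451). Without both PC3 libraries numbered 4, DARS (-0.50, adjusted p = 0.0202) and MARS (0.40, adjusted p = 0.0421) passed, against 3.67% of all genes. The 12 cytosolic members described as ATF4 targets had a median difference of 0.16, the other 7 of -0.15, the mitochondrial members of -0.05 and all genes of -0.00.

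The genes around the synthetases were read from lists of the same kind. The ATF4 gene itself held 433 ± 32.6 CPM in normoxic and 369 ± 64.6 CPM in hypoxic HCT116 cells (SD, n = 3), a log2 fold change of -0.21 (adjusted p = 0.174). In PC3 it held 145 ± 16.7 and 147 ± 18.52 CPM (SD, n = 4), a log2 fold change of 0.02 (adjusted p = 0.919). Of 18 genes of amino acid synthesis and uptake described as ATF4 targets, 2 rose and 2 fell in HCT116 (22.2%, against 25.9% of all genes tested), and 2 rose in PC3 (11.1%, against 11.3%). SLC7A11, the cystine transporter, fell in HCT116 (-0.87, adjusted p = 0.00254), as did PSAT1 of serine synthesis (-0.38, adjusted p = 0.0127). SLC38A2, a transporter of small neutral amino acids, rose in both lines (0.56 in PC3 and 0.30 in HCT116, adjusted p = 0.00745 and 0.0335), ALDH18A1 of proline synthesis rose in HCT116 (0.27, adjusted p = 0.00735), and CTH, which makes cysteine, rose in PC3 (0.78, adjusted p = 0.0143). SLC7A11 and CTH differed between the lines in their response (0.85 and 1.04, adjusted p = 0.0489 and 0.0208).

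The following counts stand against the same shares of all genes, 25.9% in HCT116 and 11.3% in PC3. Of 5 genes that carry or export cytosolic transfer RNA, XPOT, which exports it from the nucleus, fell in HCT116 (-0.28, adjusted p = 0.00984) and EEF1G, a subunit of the elongation factor complex, rose (0.27, adjusted p = 0.0169). XPOT differed between the lines (0.37, adjusted p = 0.0397). Of 4 mitochondrial elongation factor genes, GFM2 fell in HCT116 (-0.24, adjusted p = 0.0279) and GFM1 in PC3 (-0.22, adjusted p = 0.0335). Of 4 genes tested for the mitochondrial amidotransferase and formyltransferase, QRSL1, the amidotransferase's catalytic subunit, fell in HCT116 (-0.55, adjusted p = 0.000614). Of 12 regulators of the ATF4 pathway, ATF3 and PPP1R15A rose and EIF2AK2 fell in HCT116, and none passed in PC3. The other synthetase genes VARS2 and TARSL2 passed in neither line. VARS was at no more than 0.107 CPM in any library and was not tested.

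More members differed between the lines than between oxygen levels. The same held for all genes tested, of which 25.9% passed in HCT116 hypoxia and 11.3% in PC3 hypoxia. In normoxia 27 of the 34 members differed between PC3 and HCT116 (79.4%), against 81.3% of the 15493 genes tested (42.4% higher and 38.9% lower). Of these, 7 were higher in PC3 (EPRS, FARSA, AARS2, CARS2, IARS2, TARS2, WARS2) and 20 were lower. The median log2 difference, PC3 minus HCT116, was -0.43 over the cytosolic members, where 2 were higher and 13 lower, and -0.22 over the mitochondrial ones, where 5 were higher and 7 lower. Over all genes it was 0.05. The groups of libraries did not overlap for 27 members, against 82.4% of all genes tested. The differences of all members are plotted with their errors.

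**Figure D3:**
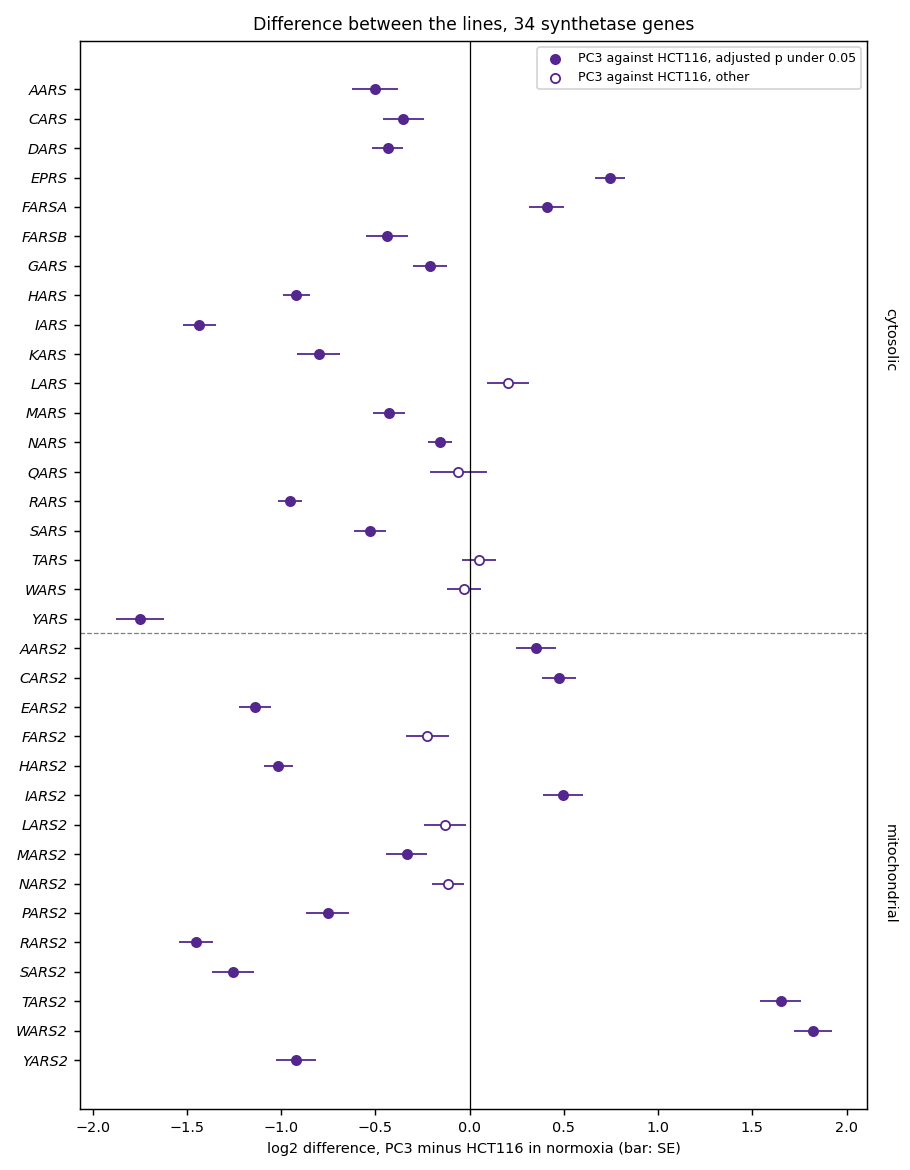
Log2 difference between PC3 and HCT116 in normoxia for the 34 members, with bars of 1 SE and filled points for an adjusted p under 0.05. Points left of 0 are lower in PC3. WARS2 (1.82) and TARS2 (1.65) lie farthest right, and YARS (-1.75), RARS2 (-1.45) and IARS (-1.43) farthest left.

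WARS2, the mitochondrial tryptophan enzyme, held 17.8, 19.9, 19.9 and 18.99 CPM in normoxic PC3 libraries and 4.97, 5.15 and 6.17 CPM in those of HCT116. Its log2 difference was 1.82 (SE 0.10, adjusted p = 1.6e-10), 3.53 times the HCT116 level. TARS2, the mitochondrial threonine enzyme, held 43.1, 51.2, 50.01 and 56.6 CPM against 16.0, 16.6 and 15.4 CPM, a log2 difference of 1.65 (SE 0.11, adjusted p = 1.46e-09). Their cytosolic partners WARS (-0.03, adjusted p = 0.764) and TARS (0.05, adjusted p = 0.622) did not pass.

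EPRS, the glutamate and proline enzyme, held 641, 684, 667 and 710 CPM in PC3 against 413, 441 and 357 CPM in HCT116, a log2 difference of 0.74 (SE 0.08, adjusted p = 4.12e-07). IARS2, the mitochondrial isoleucine enzyme, held 307, 369, 363 and 394 CPM against 246, 271 and 246 CPM. Its log2 difference was 0.49 (SE 0.11, adjusted p = 0.000528). EPRS and IARS2 lie near each other on chromosome 1 of GRCh37, at 220141942-220219872 and 220267474-220321383.

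YARS held 76.7, 90.0, 79.9 and 104 CPM in PC3 against 292, 312 and 279 CPM in HCT116, the largest difference of any member downwards (-1.75, SE 0.13, adjusted p = 4.54e-09). Its overlapping neighbour S100PBP was also lower in PC3 (-1.07, adjusted p = 3.76e-09). IARS, the cytosolic isoleucine enzyme, held 241, 261, 258 and 273 CPM against 690, 738 and 666 CPM (-1.43, SE 0.09, adjusted p = 5.73e-10). IARS was thus lower and its partner IARS2 higher in PC3.

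RARS2, the mitochondrial arginine enzyme, held 18.6, 19.9, 19.7 and 20.1 CPM in PC3 against 53.2, 52.5 and 54.8 CPM in HCT116 (-1.45, SE 0.09, adjusted p = 5.53e-10). SARS2, the mitochondrial serine enzyme, held 11.7, 14.9, 14.1 and 15.2 CPM against 34.5, 33.7 and 31.9 CPM (-1.26, SE 0.11, adjusted p = 4.66e-08). For these 8 genes no PC3 library overlapped any of HCT116, and 82.4% of all genes tested were also without overlap. Leaving out any library kept each past the threshold. The 8 were picked for the size of their differences, so neither outcome is further support. RARS (-0.95) and SARS (-0.53) were lower in PC3 like their partners.

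HARS and HARS2, the cytosolic and mitochondrial histidine enzymes, start back to back on chromosome 5. This pair was chosen for its shared start after its values were seen. RefSeq places their starts on GRCh38.p14 at 140691370 (minus strand) and 140691455 (plus strand). The 84 bases between them (chr5:140691371-140691454) are shown because both genes differed alike between the lines. They are written on the plus strand, with a GCGTG core of the minus strand in capitals.

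HARS to HARS2: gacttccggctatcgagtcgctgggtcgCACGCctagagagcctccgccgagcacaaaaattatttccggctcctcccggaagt

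HARS held 74.7, 82.7, 82.8 and 82.9 CPM in normoxic PC3 cells against 158, 158 and 142 CPM in HCT116, a log2 difference of -0.92 (SE 0.07, adjusted p = 1.24e-08). HARS2 held 27.0, 28.7, 29.2 and 30.8 CPM against 58.3, 59.6 and 57.4 CPM, a log2 difference of -1.01 (SE 0.08, adjusted p = 5.82e-09). In hypoxia their log2 fold changes were -0.10 and -0.13 in PC3 and -0.05 and -0.06 in HCT116, and none passed. Their annotated starts overlap on GRCh37 (140052620-140071122 and 140071015-140078890) and the enzymes are close in sequence, so reads could be split between them in ways that cannot be told apart here.

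The differences of the members between the lines were set beside those of the genes near them. For each member, the median log2 difference of the other genes tested within 5 Mb on either side was taken on GRCh37, over 22 to 217 genes. It ran from -0.58 around SARS2 and RARS2 to 0.92 around LARS, with 0.05 for all genes tested. Across the 34 members the difference of the member and the median around it had a Pearson r of 0.55 and a Spearman rho of 0.56, which is a description, since EPRS with IARS2 and HARS with HARS2 share most of their neighbours. The neighbours of EPRS and IARS2 had a median of 0.62, and 82.9% of them were higher in PC3. Those of RARS2 had a median of -0.58, and 18.8% were higher in PC3. The member and its surroundings had the same sign for 18 of 34. Neither the correlation nor this count was taken for other genes. Whether the members follow their surroundings more than other genes do was not tested. HARS, HARS2 and RARS were lower in PC3 where the medians around them were 0.31, 0.31 and 0.27, and CARS2 was higher (0.48) where its own surroundings were at -0.40.

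**Figure D4:**
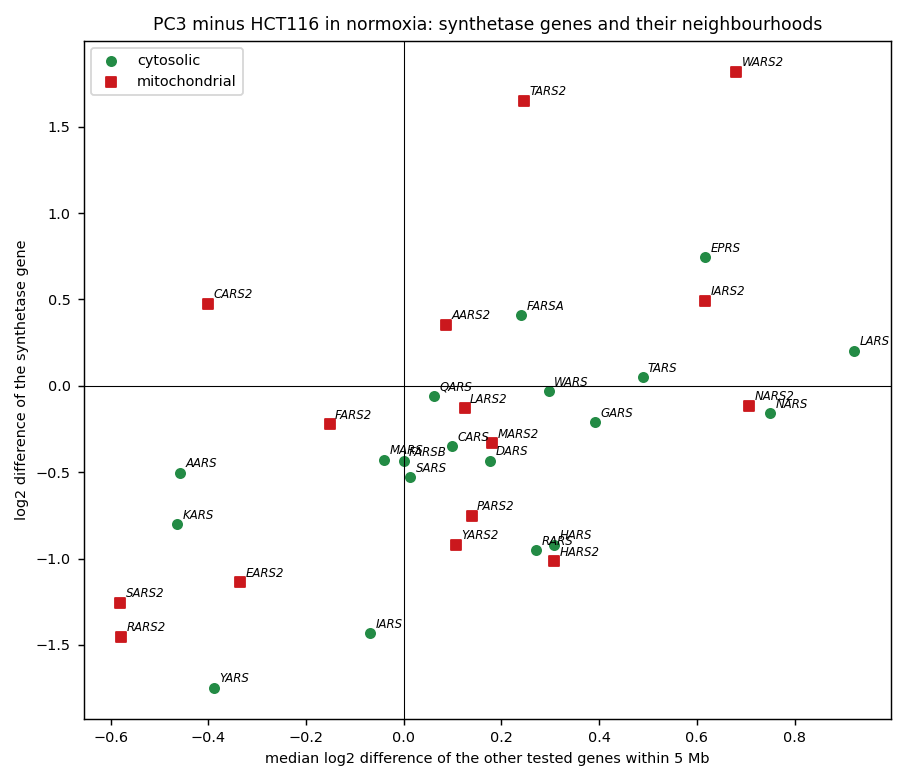
Log2 difference between PC3 and HCT116 in normoxia of each member (vertical) against the median of the other tested genes within 5 Mb (horizontal), for cytosolic (circles) and mitochondrial genes (squares). WARS2, EPRS and IARS2 lie at upper right, and SARS2, RARS2 and YARS at lower left.

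The cytosolic genes were expressed at several times the level of the mitochondrial ones. Levels between genes were compared per kilobase of the union of each gene's exons in the GENCODE annotation of GRCh37. The median cytosolic level was 5.66 ± 0.374 times the mitochondrial median in normoxic PC3 cells (SD, n = 4) and 6.54 ± 0.129 times in normoxic HCT116 cells (SD, n = 3). In hypoxia the ratio was 6.37 ± 0.516 in PC3 and 5.74 ± 0.373 in HCT116. The ratio in PC3 hypoxia overlapped that of normoxia (5.94 to 7.05 against 5.41 to 6.22) but was higher in the hypoxic library of all 4 numbered pairs, with each of the 3 lengths used. In HCT116 it was lower in every hypoxic library (5.36 to 6.11 against 6.43 to 6.68). The ratio of the summed levels moved less, from 4.35 to 4.39 in PC3 and from 4.97 to 4.92 in HCT116, and overlapped in both lines. The union counts rare exons as well. With the length of the canonical transcript, a choice made after the values were seen, the ratio went from 7.10 in normoxia to 7.75 in hypoxia in PC3 and from 7.04 to 6.18 in HCT116, where the libraries were apart. With the longest transcript it went from 7.31 to 8.36 in PC3 and from 9.55 to 9.52 in HCT116, where the libraries overlapped.

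The order of the levels depended on the length used. Per kilobase of the union, EPRS (127 ± 5.42), FARSA (106 ± 8.77), TARS (87.2 ± 7.75) and IARS2 (86.6 ± 8.83 CPM per kb, SD, n = 4) were highest in normoxic PC3 cells, and TARS and IARS2 were within their spread of each other. In HCT116, KARS (88.7 ± 3.78), TARS (84.3 ± 6.66), FARSA (79.5 ± 4.06), EPRS (75.8 ± 7.99) and NARS (75.6 ± 4.61 CPM per kb, SD, n = 3) led. TARS, FARSA, EPRS and NARS each lay within an SD of the next, and KARS lay above TARS by more than its own SD but less than that of TARS. RARS2 was lowest in PC3 (1.11 ± 0.0379 CPM per kb) and WARS2 in HCT116 (1.42 ± 0.169 CPM per kb). Per kilobase of the canonical transcript, PARS2, the mitochondrial proline enzyme, was lowest in PC3 at 3.60 ± 0.300 and WARS2 remained lowest in HCT116 at 1.95 CPM per kb.

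Of 16 pairs of partner genes for the same amino acid, in which EPRS and FARS2 each stand in more than 1 pair, the cytosolic gene was the higher in 13 in every normoxic PC3 library and in 14 in every HCT116 library. The exceptions were HARS with HARS2, IARS with IARS2 and, in PC3, YARS with YARS2. Only the isoleucine pair kept this order in PC3 under all 3 lengths. The ratio of IARS to IARS2 in PC3 was 0.134 ± 0.00746 with the union, 0.296 with the longest transcript and 0.570 with the canonical transcript, and in HCT116 0.506 ± 0.00941, 1.12 and 2.16. HARS and YARS were above their partners with both other lengths, and the mean of CARS was then below that of CARS2 in PC3 (ratio 0.811 and 0.888, against 1.38 with the union). The plot of the pairs shows both lengths side by side.

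**Figure D5:**
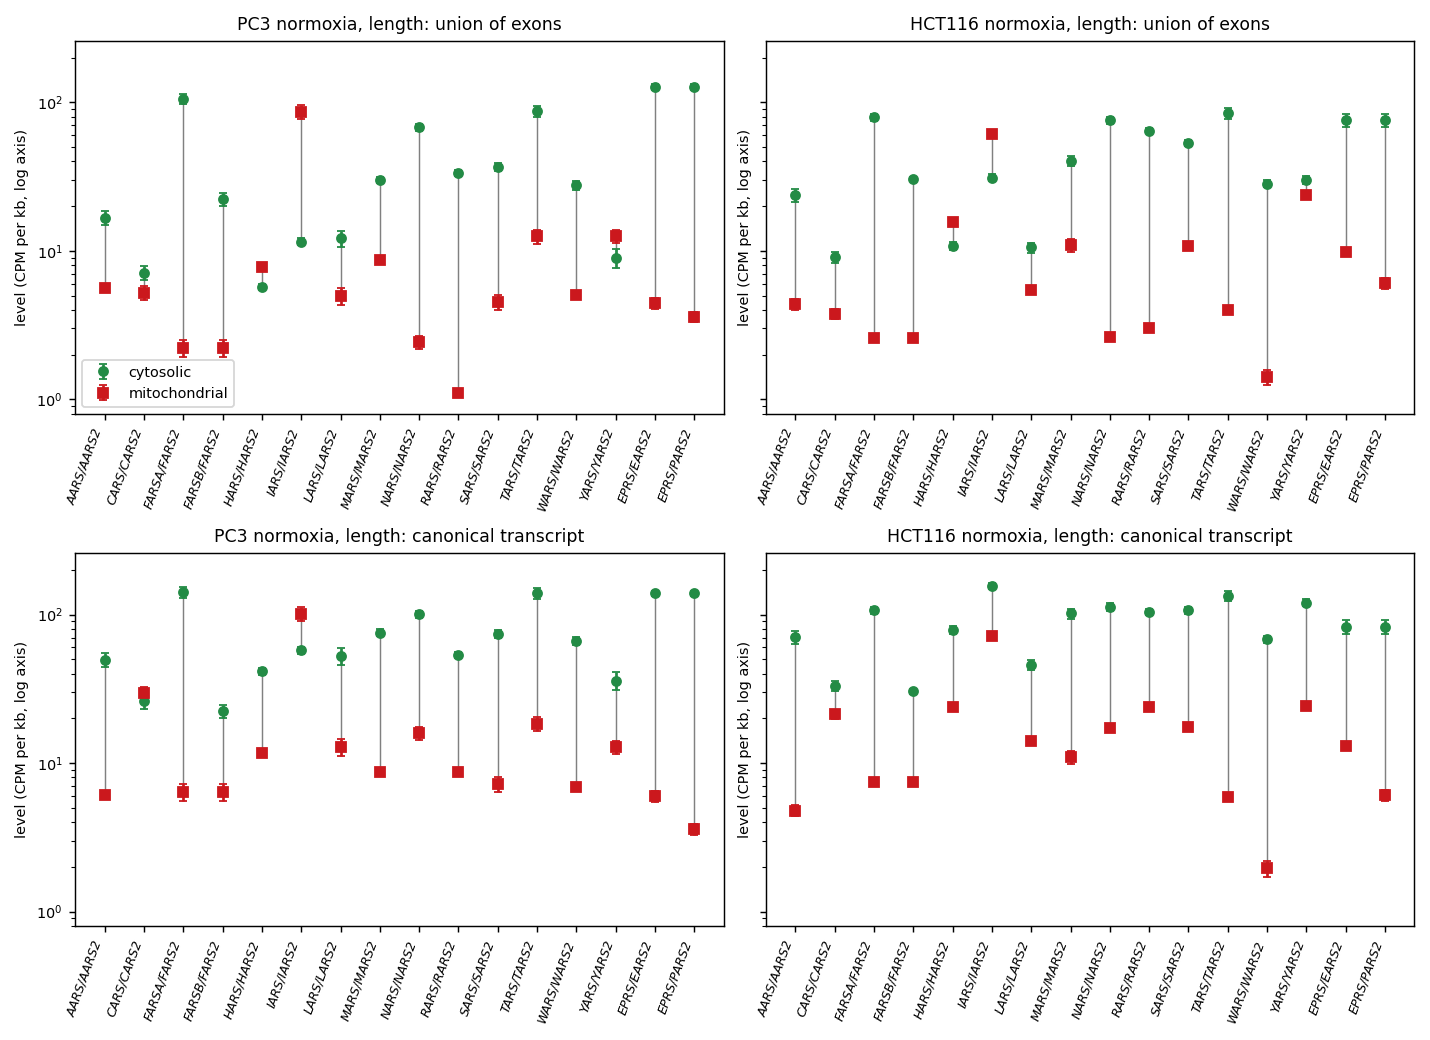
Level per kilobase (CPM per kb, log axis) of the cytosolic (circles) and mitochondrial (squares) gene of 16 pairs in normoxia, as mean and SD of 4 PC3 (left) and 3 HCT116 libraries (right). The upper row uses the union of exons and the lower row the canonical transcript. IARS2 is above IARS in PC3 in both rows, and in HCT116 in the upper row only.

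The pairs differed between the lines in different ways. The tryptophan ratio (WARS over WARS2) was 5.56 in PC3 and 20.2 in HCT116, and the threonine ratio (TARS over TARS2) was 6.99 and 21.1, per kilobase of the union. The ratio of EPRS to EARS2 went the other way, 28.7 in PC3 and 7.79 in HCT116, as did that of EPRS to PARS2 (35.4 and 12.5). For HARS with HARS2 (0.734 and 0.686) and NARS with NARS2 (27.9 and 28.7) the ratios were close. How many times such a ratio differs between the lines does not depend on the length chosen, since the same lengths divide both lines.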

How the data were processed

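Polyadenylated RNA of 14 libraries from PC3 and HCT116 cells was sequenced, and the authors deposited raw counts per gene symbol for each library, made with HISAT2 (2.05) and HTSeq (0.5.4p3) on GRCh37 per the submitters' notes; reads of the added ERCC spike-in RNA had been set aside first. HTSeq's intersection-strict mode drops reads that lie wholly within more than 1 gene, and strand use is not given in the sources used here. Members other than those named with an overlap above also overlap coding genes in GENCODE. Among them are EARS2 (GGA2 and UBFD1), WARS (WDR25), AARS2 (TMEM151B) and SARS2 (a coding gene without a symbol). The part of these genes in the counts was not tested. Symbols were matched to GENCODE for exon lengths and positions (21593 of 23106). Counts were tested with edgeR 4.0.16 (R 4.3.3): filterByExpr, TMM, quasi-likelihood F-test, Benjamini-Hochberg adjustment over all genes tested, threshold 0.05. Each line was fitted alone for hypoxia, and all 14 libraries together for the difference of responses and for the lines in normoxia. An SE is the unshrunk log2 fold change over the root of F. Values after ± are SDs over libraries. The fits were tested on simulated data. Alternatives covered scaling, filters, DESeq2 1.42.0, gene length, the replicate block and each library left out.

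The members and all gene lists were chosen with earlier results of these data known. Any member could be named. Library values are given for those past the threshold in either line (the 8 with the largest change per line), the 3 with the largest difference of response and the 4 with the largest difference between lines each way. Genes of other lists are named where they passed, at most 6 per comparison. PC3 replicate numbers, taken from the sample titles, paired the libraries: deviations from the condition means correlated at 0.81, 0.47, 0.30 and 0.39 for numbers 1 to 4. PC3 libraries of different numbers correlated at -0.56 to 0.33, each below the same-number values of both libraries. In HCT116 the numbers did not pair the libraries (0.083, 0.33 and -0.050, against -0.25 to 0.15 for different numbers). Replicates differed by more than counting error, so none was counted as a duplicate. Some genes of the lists are not reported here.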

Additional observations from a re-analysis of the deposited data

Results flagged for a closer look

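In the 4 normoxic PC3 libraries, library 1 stood far below the other 3 for 5 members, by Dixon's criterion. DARS was at 124.0 CPM there against 137.0 to 138.8 CPM in the others. FARSA was at 225.0 CPM against 265.6 to 269.9 CPM, and its partner subunit FARSB at 128.2 CPM against 158.0 to 161.0 CPM. HARS was at 74.7 CPM against 82.7 to 82.93 CPM. NARS2 was at 34.1 CPM against 41.35 to 42.38 CPM. Among 68 groups of 4 libraries examined over the 34 members, chance gives about 3.4 such cases, 1 in 20, and 5 were seen, all in the same library and all low. The hypoxic PC3 library of the same number was low for most members as well, as described in the report. The cause was not tested.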

How the results depend on the processing

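Of the values for single genes under the alternatives, 389 kept their direction and side of the threshold, 16 passed it newly, 59 lost it and none reversed. In PC3, the count of members that rose (2) was 0 with upper-quartile scaling, 0 with total-count scaling and 0 with a log2 fold change of at least 0.5, and the count that fell (1) was 8, 1 and 0 in turn with total-count, upper-quartile and the 0.5 limit. The cytosolic median was -0.14 with total counts, which moved the median of all genes by -0.10. In HCT116, 1 member rose with total counts, with the 0.5 limit and in 1 fit over 14 libraries, and 10, 0 and 2 fell in turn, against 7. The cytosolic and mitochondrial medians were -0.15 and -0.14 with total counts, where all genes moved by -0.09. For the difference between the lines' responses, 1 member was lower with upper-quartile scaling, total counts, DESeq2, a minimum of 10 counts, or both PC3 libraries numbered 1 left out, and 2 were higher with DESeq2. Without both PC3 libraries numbered 4, 0 members rose and 0 fell in PC3, and for the difference 1 was higher and 1 lower, with a cytosolic median of -0.024. Between the lines, 3 were higher and 13 lower by at least 0.5. The ratio of cytosolic to mitochondrial levels was 7.31 in PC3 and 9.55 in HCT116 with the longest transcript, and 7.10 and 7.04 with the canonical one. The causes of these changes were not tested, beyond fewer genes reaching a stricter limit.

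With the replicate number as a block, 7 members fell in PC3 in place of 1. In HCT116, where the numbers did not pair the libraries, 2 rose and 6 fell. In the difference of responses the block gave 2 higher and 1 lower in place of 0.

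With 1 library left out at a time, 0 to 2 members rose and 0 to 2 fell in PC3, and 1 to 2 rose and 4 to 7 fell in HCT116. In the difference of responses 0 to 1 were higher and 0 to 1 lower, and between the lines 7 to 8 and 17 to 21. The cytosolic and mitochondrial medians ran from -0.11 to -0.00 and from -0.16 to -0.08 in PC3, from -0.11 to -0.01 and from -0.083 to -0.048 in HCT116, from -0.059 to 0.10 and from -0.10 to 0.00 for the difference, and from -0.45 to -0.37 and from -0.27 to -0.14 between lines. The ratio of levels ran from 5.48 to 5.75 in PC3 and 6.47 to 6.60 in HCT116.

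Depth did not limit the members, none of which fell below 568 counts in a library. The number of libraries, 3 or 4 per group, limits the precision. Strand in counting is unknown, lines differ in medium, and leaving out both PC3 libraries numbered 1 or 4, the canonical length and the left-out libraries for levels were chosen after seeing the data.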

Other observations

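Outside the hypoxia comparisons, the lines differed in the genes that accompany the synthetases. ATF4 was lower in PC3 than in HCT116 in normoxia, with a log2 difference of -1.57 (SE 0.12, adjusted p = 9.62e-09 in edgeR). Of 18 genes of amino acid synthesis and uptake described as ATF4 targets, 2 were higher and 11 lower in PC3, with a median of -0.81. Of 12 regulators of that pathway, 7 were higher in PC3 and 2, ATF4 and CEBPG, were lower. Of the 12 cytosolic members described as ATF4 targets, 1 was higher (EPRS) and 8 were lower, with a median of -0.28. All genes tested had a median of 0.05, and 81.3% of them passed.

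Of 19 interferon response genes, 17 were tested between the lines, but 11 within HCT116 alone. Some thus entered only through PC3, where they were high, and their direction was set by the filter. All 17 were higher in PC3, against 42.4% of all genes tested. WARS, which interferon raises, did not pass (-0.03, adjusted p = 0.764). In both PC3 libraries numbered 1, WARS lay above its condition mean, with log2 deviations of 0.08 (normoxia) and 0.11 (hypoxia), as the interferon genes did. It also lay above it in both libraries numbered 4 (0.08 and 0.20), where the interferon genes lay below theirs. AIMP1 and EEF1E1 of the synthetase scaffold were lower in PC3 (-0.86 and -1.08), and AIMP2 was at -0.08 (adjusted p = 0.354).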
